A study of Saccharomyces cerevisiae with 18 samples.

Results

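The 9 genes described here make or switch on the enzymes of lysine synthesis in budding yeast (Saccharomyces cerevisiae): LYS20, LYS21, LYS4, LYS12, LYS2, LYS5, LYS9, LYS1 and LYS14. They were found by their systematic names among the 6606 open reading frames (ORFs) of 1 deposited count table, and all 9 were present. The study asked how the place of a gene on its chromosome bears on expression. It sequenced poly-A RNA from a wild-type with 6 libraries and from 4 strains with 3 libraries each. Each strain is a heterozygous diploid in which 1 copy of a chromosome I ORF was replaced: SEO1 (YAL067C), GIP4 (YAL031C), FUN26 (YAL022C) or FUN14 (YAL008W). All groups grew at 30 °C in YPD, a rich medium, without G418, the drug used to select a replacement, and were in log phase (optical density 0.2 to 1.0). The labels give BY4741 as the background of every library, and the series record calls the wild-type diploid. The wild-type columns of the table are named for BY4743, a diploid, and were matched to the wild-type samples by that group and their replicate numbers. The labels do not say whether replicates were separate cultures, so the spread behind each p-value may be technical.

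Yeast makes lysine by the aminoadipate pathway. Homocitrate synthase (Lys20 and Lys21) joins 2-oxoglutarate to acetyl-CoA, homoaconitase (Lys4) and homoisocitrate dehydrogenase (Lys12) turn the product into 2-oxoadipate, and a transaminase turns that into aminoadipate. Lys2, once activated by Lys5, reduces aminoadipate to its semialdehyde, from which Lys9 makes saccharopine and Lys1 makes lysine. The semialdehyde is a co-inducer of the activator Lys14, lysine inhibits homocitrate synthase, and the general activator Gcn4 acts on many genes of amino acid synthesis. LYS2 is also a marker of strain background: BY4741 carries it intact, and BY4743 has 1 intact and 1 deleted copy. MET17 is the converse marker, deleted in BY4741 and present as a single copy in BY4743.

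To show where the motifs of both activators lie, the 300 bases before each ORF in RefSeq assembly R64 were searched on both strands for 2 motifs. TCCNNNGGA is a loose form of the core of the element bound by Lys14, with any base allowed at the positions marked N. A match to it may therefore differ from that core. TGACTC is a core of the element bound by Gcn4. The first occurred before 189 of 6001 ORFs (3.15%) and before LYS1, LYS9, LYS12 and LYS14. The second occurred before 466 ORFs (7.77%) and before LYS1, LYS2, LYS12 and LYS14. Neither letter string was found in this window of LYS4, LYS5, LYS20 or LYS21. The stretches below run from 260 to 121 bases before the ORF, 5′ to 3′ on the coding strand. They are shown for the 5 genes with a match and for LYS20, the most abundant member, as an example without one. Capitals mark matches to either motif. GAGTCA is TGACTC read on the other strand, and no match overlaps a match to the other motif.
LYS1 (chrIX:420857-420996, minus strand): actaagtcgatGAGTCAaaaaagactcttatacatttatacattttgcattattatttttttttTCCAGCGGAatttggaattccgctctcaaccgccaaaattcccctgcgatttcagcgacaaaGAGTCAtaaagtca
LYS9 (chrXIV:715509-715648, minus strand): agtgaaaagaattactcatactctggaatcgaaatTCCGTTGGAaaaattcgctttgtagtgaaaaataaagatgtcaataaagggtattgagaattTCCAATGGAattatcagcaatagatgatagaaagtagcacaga
LYS12 (chrIX:187753-187892, minus strand): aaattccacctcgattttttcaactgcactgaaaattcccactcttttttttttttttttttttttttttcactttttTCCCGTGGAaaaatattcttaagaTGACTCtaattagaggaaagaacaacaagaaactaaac
LYS14 (chrIV:512230-512369, minus strand): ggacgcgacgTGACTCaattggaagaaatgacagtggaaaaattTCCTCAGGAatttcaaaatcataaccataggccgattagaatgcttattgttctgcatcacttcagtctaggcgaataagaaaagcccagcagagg
LYS2 (chrII:474047-474186, minus strand): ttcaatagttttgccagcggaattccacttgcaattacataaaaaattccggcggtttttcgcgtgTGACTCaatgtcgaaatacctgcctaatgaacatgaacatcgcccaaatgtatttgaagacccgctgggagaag
LYS20 (chrIV:133177-133316, plus strand): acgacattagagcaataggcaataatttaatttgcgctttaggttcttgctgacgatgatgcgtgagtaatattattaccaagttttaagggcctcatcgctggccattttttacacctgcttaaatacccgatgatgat
LYS9 holds the first motif 2 times, at 225 to 217 and 163 to 155 bases before the ORF, and does not hold the second. LYS1 holds the first motif at 196 to 188 bases, between matches to the second at 249 to 244 and 134 to 129 bases. A match is a description of these letters and was not tested as a binding site.

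**Figure D1:**
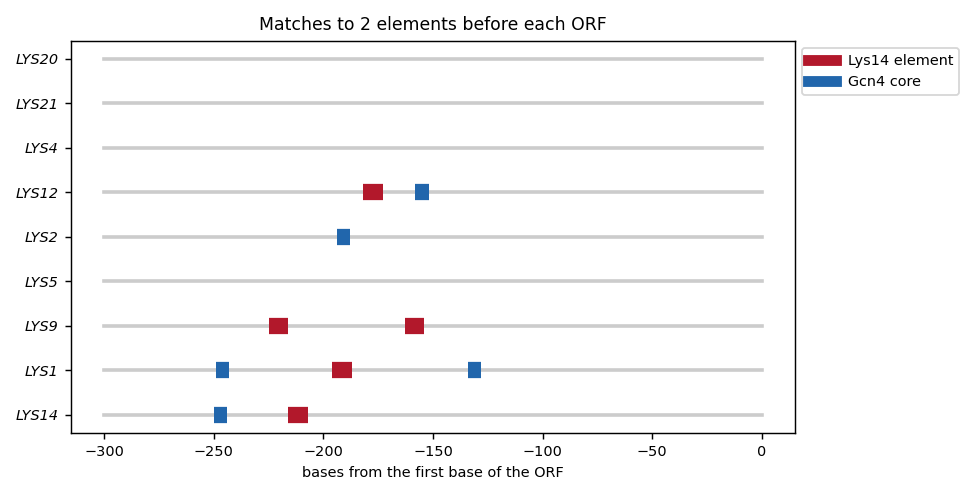
Positions of matches to TCCNNNGGA (red, labelled Lys14 element) and TGACTC (blue, labelled Gcn4 core) in the 300 bases before each of the 9 ORFs. TCCNNNGGA is a loose form of the Lys14 core. Sequences are from assembly R64, and the first base of the ORF is at 0 on the horizontal axis. LYS1, LYS12 and LYS14 hold both, LYS9 holds the first and LYS2 the second, and the other 4 genes hold neither.

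Total counts ran from 52293.5 to 132618 per library, and the highest count of any member was 78.5, below the ceiling that the table shows. Counts of wild-type replicates 1 and 2 agreed within sampling noise: chi-square divided by the number of ORFs compared (2513) was 0.969, against 2.07 to 9.61 in the 14 other wild-type pairs. This pair was averaged into 1 sample, so wild-type has n = 5. Levels are counts per 1e6 (CPM) of the library's scaled total of ORFs that passed the count filter. Since each count covers the last 200 bases of an ORF, levels of different genes need no scaling for ORF length. Other differences in how well a gene is counted, such as reads shared by paralogs, remain in them. The labels were checked against other genes. The replaced gene was lower in its own strain for FUN14, at 134 to 191 CPM against 253 to 378 in wild-type, and for GIP4, at 0 to 2 counts against 3 to 8. It overlapped for FUN26, at 88.7 to 210 against 114 to 405 CPM, and SEO1 had 0 counts in every strain library and 3.5 in all of wild-type. The 6 a-specific genes, expressed in haploid cells of a-mating type, summed to 955 to 1620 CPM in wild-type, against 16 to 174 in the strain libraries. The 5 haploid-specific genes listed summed to 751 to 1440 against 17.4 to 174 CPM, and the 2 alpha-specific genes to 0 to 49.2 against 0 to 48.0. MET17 stood at 115 to 180 CPM in wild-type and at 89.4 to 261 in 10 of the 12 strain libraries, and was at 19.1 in FUN26 replicate 2 and at 0 counts in GIP4 replicate 1, which allows up to 26.6 CPM. The MET17 reads of the libraries labelled wild-type go against a BY4741 background, and their a-specific and haploid-specific reads go against a diploid. Since the wild-type libraries differ from all 4 strains in these cell-type genes, a shared difference between strains and wild-type cannot be told apart from that difference between the cells. In bulk RNA, fewer cells of a type and less RNA per cell cannot be told apart either.

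By mean level LYS20 was the most abundant of the 9 genes and LYS2 the least. Over the 17 libraries LYS20 averaged 560 ± 173 CPM (SD) and held 35.9% of the summed mean level of the 9 genes. LYS1 followed at 293 ± 90.0 CPM, LYS9 at 221 ± 83.9 and LYS4 at 173 ± 92.8. The other genes were lower, with LYS14 at 88.7 ± 41.0 CPM, LYS12 at 77.4 ± 40.4, LYS5 at 61.8 ± 36.0, LYS21 at 56.1 ± 31.4 and LYS2 at 28.6 ± 12. Each gene in this order lay above the next in 15, 12, 10, 14, 9, 13, 8 and 13 of 17 libraries. The neighbours LYS14 and LYS12, LYS12 and LYS5, LYS5 and LYS21, and LYS21 and LYS2 were thus not separated beyond their spread. Nor was LYS9 separated from LYS1 or LYS4. Only LYS1, LYS4, LYS9, LYS12, LYS14 and LYS20 passed the count filter. LYS2, LYS5 and LYS21 are tested in a fit without that filter.

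**Figure D2:**
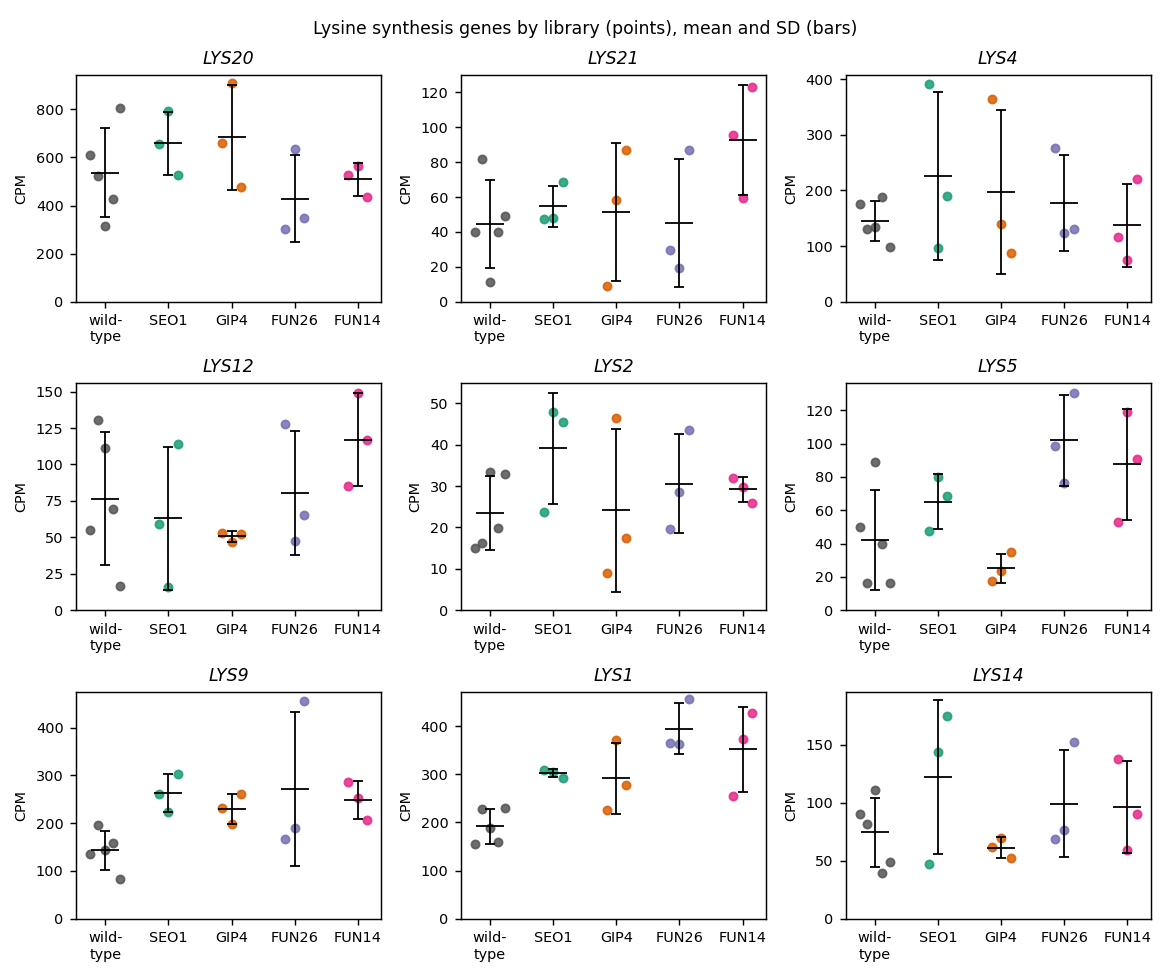
Level of each of the 9 genes in CPM on the vertical axis (linear, from 0, scaled per panel), by group: points are libraries (wild-type n = 5, each strain n = 3), long bars the mean and whiskers the SD. For LYS1 all strain libraries but 1 lie above the highest wild-type library, at 230 CPM, while for LYS4, LYS12 and LYS20 the groups overlap.

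In the comparison of the 4 strains with wild-type, LYS1 and LYS9 had the highest fold changes of the 9 genes, and none of the 9 passed the threshold. Of the first-step genes LYS21 had a log2 fold change of 0.41 ± 0.44 and LYS20 of 0.08 ± 0.23, and a difference between steps was not tested. LYS1 averaged 335 ± 69.2 CPM in the 12 strain libraries against 192 ± 36.1 in wild-type, and LYS9 253 ± 75.7 against 143 ± 41.4, while LYS20 averaged 570 ± 176 against 537 ± 186. By edgeR's quasi-likelihood test 0 of the 6 tested genes passed an adjusted p of 0.05, nor did the 3 genes of the fit without the filter, where 0.385% of 2856 tested ORFs and 0.343% of 6413 passed. DESeq2 also called 0 of the 6. At an unadjusted p under 0.05, LYS1 and LYS9 were higher and 0 members were lower, beside 3.15% and 3.33% of all tested ORFs. In each strain taken alone 0 of the 6 passed the adjusted threshold, where 0.14% of tested ORFs did for SEO1, 0.28% for GIP4, 0.21% for FUN26 and 0.315% for FUN14. The median log2 fold change was 0.30 over the 6 tested genes, with 5 positive, and 0.33 over all 9 in the fit without the filter, with 8 positive. Over all tested ORFs the median was −0.05 and 44.2% were positive.

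LYS1 (YIR034C, chromosome 9, 419612 to 420733 on the minus strand in the table's coordinates) encodes the saccharopine dehydrogenase that forms lysine. In wild-type it stood at 155, 229, 189, 159 and 230 CPM, the first value being the mean of replicates 1 and 2. It stood at 308, 304 and 292 CPM in the SEO1 heterozygote and at 226, 372 and 278 in the GIP4 heterozygote. The FUN26 heterozygote had 365, 363 and 457 CPM and the FUN14 heterozygote 255, 373 and 427. The strain libraries ran from 226 through a median of 336 to 457 CPM, and 11 of the 12 lay above every wild-type library, GIP4 replicate 1 being the exception. Of all tested ORFs, 0.455% had at least 11 of the 12 strain libraries above every wild-type library. The log2 fold change of the mean of the strains was 0.79 ± 0.21 (SE, 95% interval 0.37 to 1.21), with an edgeR p of 0.00142 and an adjusted p of 0.253. It ranked 16th of the 2856 ORFs by p and 72nd by fold change, with 2.49% of them higher. An exact two-sided permutation test of log2 CPM gave p = 0.000162, the smallest possible with 6188 splits, unadjusted for the number of genes.

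By strain, the LYS1 log2 fold change was 0.65 ± 0.28 for SEO1, 0.61 ± 0.28 for GIP4, 1.03 ± 0.27 for FUN26 and 0.87 ± 0.28 for FUN14, with edgeR adjusted p of 0.994, 0.942, 0.290 and 0.159. The 4 comparisons share their wild-type libraries. In each of the SEO1, FUN26 and FUN14 heterozygotes all 3 LYS1 libraries lay above every wild-type library, as did 1.82%, 2% and 4.9% of tested ORFs, and in the GIP4 heterozygote 2 of 3 did, where 1.47% of tested ORFs had all 3 above. A difference between the strains in LYS1 was not shown (edgeR F test, adjusted p = 0.837). In the FUN14 heterozygote the LYS1 call depended on the libraries used: without wild-type replicate 3 the log2 fold change was 0.96 and the edgeR adjusted p 0.0495, although the count of ORFs passing in that comparison went from 9 to 175.

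LYS9 (YNR050C, chromosome 14, 714051 to 715391, minus strand) encodes the saccharopine dehydrogenase that forms saccharopine, the step before Lys1. In wild-type it stood at 135, 196, 144, 159 and 82.1 CPM. It stood at 261, 224 and 304 CPM in the SEO1 heterozygote and at 231, 198 and 261 in the GIP4 heterozygote. The values were 168, 191 and 457 CPM in the FUN26 heterozygote and 287, 253 and 207 in the FUN14 heterozygote. All 12 strain libraries lay above the wild-type mean and 10 lay above every wild-type library, while FUN26 replicates 1 and 2 lay below wild-type replicate 3. Of tested ORFs, 0.7% had at least 10 of 12 above. The log2 fold change was 0.78 ± 0.27 (SE, interval 0.26 to 1.31), with an edgeR p of 0.00880 and an adjusted p of 0.610. It ranked 41st by p and 76th by fold change, and the exact permutation p was 0.000646, also unadjusted. For the remaining members the exact permutation p ran from 0.142 for LYS5 to 0.932 for LYS12. The permutation treats all libraries as interchangeable, although same-numbered libraries were more alike in the median. By strain the LYS9 log2 fold change was 0.87 for SEO1, 0.65 for GIP4, 0.83 for FUN26 and 0.78 for FUN14, with adjusted p of 0.994, 0.942, 0.980 and 0.280 in edgeR. The FUN26 value rested on replicate 3, at 457 CPM, and was 0.31 without it.

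Both genes were recomputed without libraries that stood apart. Without GIP4 replicate 1, where MET17 had 0 counts, the log2 fold change was 0.84 for LYS1 and 0.79 for LYS9, and without FUN26 replicate 2 it was 0.81 and 0.84. The first principal component of log2 CPM held 44.8% of the variance over the 17 libraries, and its correlation was 0.35 with LYS1 and 0.43 with LYS9. Its part in the difference was not tested.

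**Figure D3:**
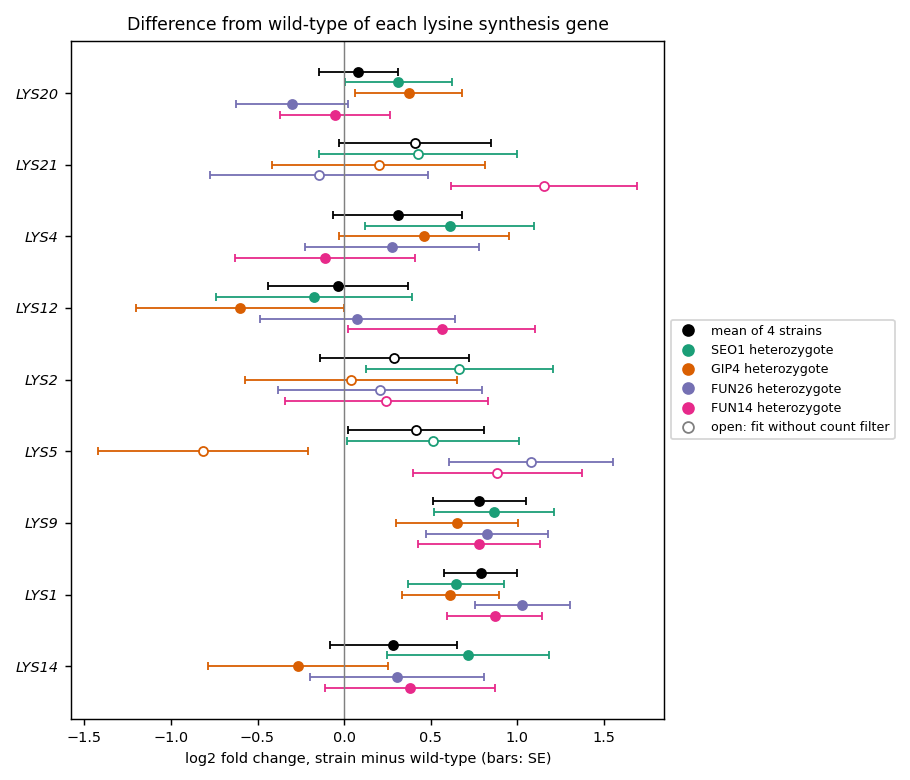
Log2 fold change from wild-type on the horizontal axis for each of the 9 genes, in the mean of the 4 strains (black) and in each strain (colours), with bars of 1 SE; open points come from the fit without the count filter. LYS9, LYS1 and LYS2 lie above 0 in all 4 strains, LYS2 only at 0.04 ± 0.61 in GIP4. LYS4, LYS5, LYS12, LYS14, LYS20 and LYS21 lie on both sides.

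**Figure D4:**
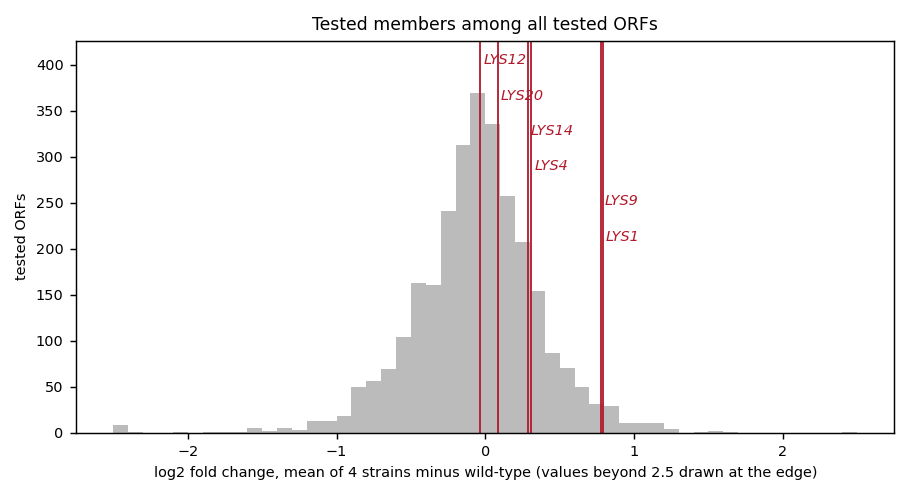
Number of tested ORFs (vertical axis) by log2 fold change of the mean of the 4 strains from wild-type (horizontal axis, bins of equal width), with lines at the 6 tested genes. LYS1 and LYS9 lie in the right shoulder at 0.79 and 0.78, where 2.49% and 2.63% of tested ORFs are higher, and LYS12 at −0.03 lies near the median.

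At the first step, LYS20 (YDL182W, chromosome 4, 133438 to 134724, plus strand) stood at 612, 523, 317, 428 and 804 CPM in wild-type. The strain libraries ran from 301 through a median of 547 to 912 CPM, with 1 library above and 1 below the wild-type range. The log2 fold change was 0.08 ± 0.23 (interval −0.37 to 0.53, edgeR adjusted p = 0.954), an interval that spans changes of either sign. By strain it was 0.31 for SEO1, 0.37 for GIP4, −0.30 for FUN26 and −0.05 for FUN14, with adjusted p of 0.942 or more. Set against LYS20 in the same library, LYS1 had a mean log2 ratio of −1.43 ± 0.49 in wild-type and −1.11 ± 0.26, −1.21 ± 0.39, −0.05 ± 0.66 and −0.56 ± 0.51 in the 4 strains in the same order. The ratio varied from −1.98 to −0.75 in wild-type and from −1.55 to 0.39 in the strains, so the groups overlapped.

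LYS21 (YDL131W, chromosome 4, 227393 to 228715, plus strand) encodes the second homocitrate synthase. It stood at 40.1, 81.7, 11.1, 39.8 and 49.3 CPM in wild-type and from 8.88 through a median of 58.9 to 123 CPM in the strains. In the FUN14 heterozygote the values were 95.6, 59.6 and 123 CPM, and 2 of them lay above every wild-type library. There its log2 fold change was 1.16 ± 0.54 (edgeR without the filter, adjusted p = 0.380), on counts of 4 to 9.5. In the other strains it was 0.43, 0.20 and −0.15, and the F test among the strains gave an adjusted p of 0.886.

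LYS20 and LYS21 are paralogs, so reads can be shared between them where the sequences are the same. Over the whole ORF 1175 of 1278 aligned bases (91.9%) were identical, with a longest shared run of 278 bases. In the last 200 bases, which the counts cover, 137 of 191 (71.7%) were identical, with a longest run of 41. The last 60 bases of each ORF in R64 are shown to make that difference visible, with the stop codon in capitals.
LYS20 (chrIV:134664-134723, plus strand): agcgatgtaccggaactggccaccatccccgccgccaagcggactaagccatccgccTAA
LYS21 (chrIV:228656-228715, plus strand): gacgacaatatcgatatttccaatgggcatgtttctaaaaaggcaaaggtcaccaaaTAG
How the authors treated reads with several matches is not given in the sources used here, so a part of the LYS21 count may belong to LYS20.

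LYS4 (YDR234W, chromosome 4, 931126 to 933207, plus strand), the homoaconitase, was uneven between libraries of the same strain. It stood at 176, 131, 133, 189 and 98.5 CPM in wild-type. In the SEO1 heterozygote it stood at 391, 95.9 and 190 CPM, and in the GIP4 heterozygote at 364, 139 and 87.0. In the FUN26 heterozygote the values were 276, 124 and 131 CPM, and in the FUN14 heterozygote 117, 74.5 and 220. Of the SEO1, GIP4 and FUN26 groups, replicate 1 was the highest library and lay above every wild-type library, as did SEO1 replicate 3 and FUN14 replicate 3. The lowest library of the SEO1, GIP4 and FUN14 heterozygotes lay below every wild-type library. In the mean of the strains the log2 fold change was 0.31 ± 0.37 (adjusted p = 0.854 in edgeR). Leaving out single libraries moved it from 0.11, without GIP4 replicate 1, to 0.45, without wild-type replicate 5. The correlation of LYS4 with the first principal component over 17 libraries was −0.47, whose part was not tested.

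LYS12 (YIL094C, chromosome 9, 186514 to 187629, minus strand), the homoisocitrate dehydrogenase, stood at 55.2, 131, 111, 69.6 and 16.4 CPM in wild-type. The strain libraries ran from 16 through a median of 62.3 to 149 CPM, and 5 of 12 lay above the wild-type mean. The groups overlapped throughout, with a log2 fold change of −0.03 ± 0.40 (interval −0.82 to 0.76, edgeR adjusted p = 0.992). The sign was not stable, at 0.07 with wild-type replicates 1 and 2 as separate samples. By strain it was −0.17 for SEO1, −0.60 for GIP4, 0.08 for FUN26 and 0.56 for FUN14.

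LYS2 (YBR115C, chromosome 2, 469742 to 473920, minus strand), the aminoadipate reductase, had 1 to 6 counts per library. It stood at 15, 16.3, 33.3, 19.9 and 32.8 CPM in wild-type, at 23.7, 48.0 and 45.6 in the SEO1 heterozygote and at 8.88, 46.5 and 17.4 in the GIP4 heterozygote. It stood at 19.7, 28.6 and 43.5 CPM in the FUN26 heterozygote and at 31.9, 29.8 and 25.9 in the FUN14 heterozygote. Every library thus held LYS2 reads, and the groups overlapped. Summed per group, the strains held 31 counts and wild-type 10, which per depth is a ratio of 1.25 with an exact counting interval of 0.596 to 2.85. By strain the ratio was 1.63 (0.628 to 4.28), 0.966 (0.288 to 2.93), 1.14 (0.370 to 3.33) and 1.21 (0.391 to 3.52) for SEO1, GIP4, FUN26 and FUN14. These intervals cover counting error only, and a difference of gene copy number between the groups was not tested. The edgeR log2 fold change without the filter was 0.29 ± 0.43 (interval −0.55 to 1.13, adjusted p = 0.885).

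Relative to its own pathway LYS2 also did not separate the groups. Its count was 1.91% ± 0.813 of the summed count of the other 8 genes in wild-type (range 1.15% to 3.02%, n = 5) and 1.84% ± 0.673 in the strains (0.546% to 2.82%, n = 12). On the log2 scale the mean ratio was −5.82 ± 0.62 and −5.87 ± 0.65, a difference of −0.06 for strains minus wild-type. As background markers, then, LYS2 and MET17 were both read in wild-type and in all but 1 strain library, GIP4 replicate 1, which had LYS2 reads and 0 of MET17.

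**Figure D5:**
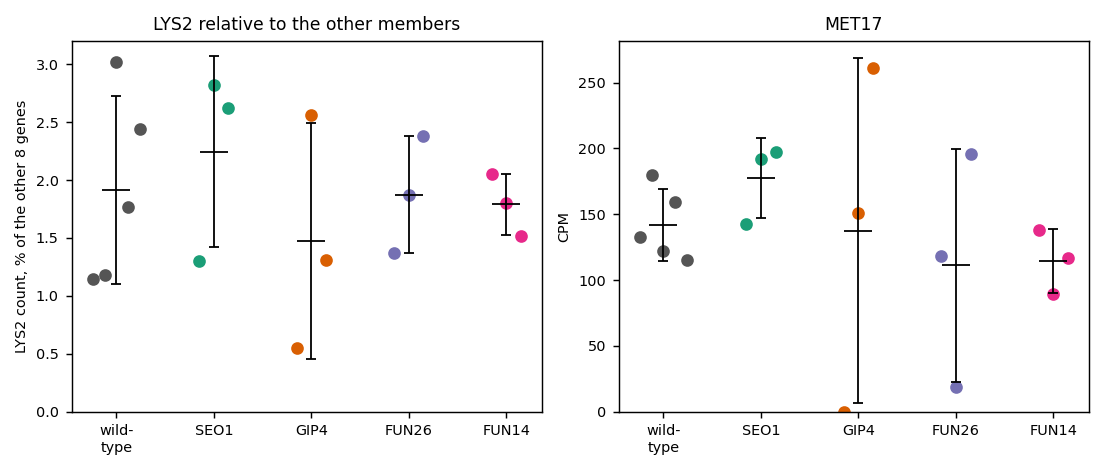
Left, the LYS2 count as a percentage of the summed count of the other 8 genes, and right, the MET17 level in CPM, by group, with points for libraries (wild-type n = 5, strains n = 3), the mean and the SD. LYS2 is present in every library at 0.546% to 3.02%, and MET17 is at 0 in GIP4 replicate 1 and at 19.1 CPM in FUN26 replicate 2.

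LYS5 (YGL154C, chromosome 7, 215283 to 216101, minus strand), the phosphopantetheinyl transferase that activates Lys2, stood at 50.1, 16.3, 88.9, 39.8 and 16.4 CPM in wild-type. It stood at 47.4, 80.0 and 68.4 CPM in the SEO1 strain and at 17.8, 23.2 and 34.8 in the GIP4 strain. The values were 98.6, 76.4 and 131 CPM in the FUN26 strain and 53.1, 119 and 90.6 in the FUN14 strain. The GIP4 libraries were the lowest 3 of the strains and the FUN26 libraries were among the highest. By edgeR without the filter the log2 fold change was −0.81 ± 0.60 in the GIP4 and 1.08 ± 0.48 in the FUN26 heterozygote (adjusted p = 0.827 and 0.898). The F test among the 4 strains gave an edgeR adjusted p of 0.593 in the fit without the filter, where 0% of 6413 ORFs passed and 477 had an unadjusted p under 0.05. With the filter 0% of 2856 passed and 287 had such a p, while DESeq2 called 2. A difference between the strains in LYS5 was thus not shown.

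LYS14 (YDR034C, chromosome 4, 509735 to 512107, minus strand), the pathway's own activator, stood at 90.3, 81.7, 111, 39.8 and 49.3 CPM in wild-type. The strain libraries ran from 47.4 through a median of 73.0 to 175 CPM, and the groups overlapped, with 4 of 12 strain libraries above every wild-type library. LYS14 had 3 to 10 counts in wild-type, where only replicate 4 reached the filter's minimum of 10, and 3 to 23 in the strains. It thus passed the filter mainly through strain libraries, so its positive value is no support for a difference. The LYS14 log2 fold change was 0.28 ± 0.37 (interval −0.44 to 1.00, edgeR adjusted p = 0.872). It was 0.14 without wild-type replicate 5 and 0.48 without wild-type replicate 4. On the same scale the LYS14 value was 0.71 for SEO1, −0.27 for GIP4, 0.31 for FUN26 and 0.38 for FUN14, each within 2 SE of 0.

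Genes around the pathway were examined beside it. Of 18 lysine-linked genes (transport, transamination, tRNA charging and regulation), 7 were tested, 0 passed, where 0.385% of tested ORFs did, and 2 were higher at an unadjusted p under 0.05, beside 3.15% of tested ORFs. YPQ1, a vacuolar transporter of basic amino acids, stood from 50 to 73.9 CPM in wild-type and from 75.4 to 202 in the strains, with no overlap, as in 0.14% of tested ORFs. Its log2 fold change was 1.08 ± 0.30 (edgeR adjusted p = 0.280). In wild-type YPQ1 had 4 to 6.5 counts, below the filter's minimum count of 10, so it was tested only through the strain libraries. The lack of overlap is thus a description and no support for a difference. KRS1, the cytosolic lysyl-tRNA synthetase, averaged 194 ± 54.9 against 122 ± 28.6 CPM (log2 fold change 0.65, adjusted p = 0.705 in edgeR). GCN4 averaged 838 ± 317 against 698 ± 352 CPM (adjusted p = 0.866), at the level of RNA, whereas Gcn4 is known to be controlled in translation. ARO8, a transaminase of this pathway, averaged 291 ± 188 against 201 ± 50 CPM. The median log2 fold change of the 7 tested genes was 0.22, with 4 positive. In the fit without the filter it was 0.19 over 17 genes, with 9 positive, and 2 genes were lower at an unadjusted p under 0.05, beside 9.31% of the ORFs in that fit. These were ALP1, a permease of basic amino acids, at 1.73 CPM in the strains against 9.95 in wild-type, and VBA2, a vacuolar transporter of basic amino acids, at 9.57 against 22. Their edgeR adjusted p was 0.427 and 0.433. All 5 wild-type counts of ALP1 came from replicate 5, so its wild-type median was 0, and the strains held 2 counts. For VBA2 no wild-type library exceeded 4 counts and no strain library exceeded 2. Both differences thus rest on few counts, and the ALP1 mean of wild-type rests on replicate 5 alone.

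The histidine genes HIS1 to HIS7, another branch under Gcn4, were set beside them. Of 6 tested, all had a positive log2 fold change in the mean of the strains, with a median of 0.36 against 0.30 for lysine synthesis and −0.05 for all tested ORFs, and 0 passed the threshold. Without the filter the order of the medians turned, at 0.20 over 7 histidine genes with 6 positive against 0.33 for lysine synthesis, HIS2 being the histidine gene added, at −0.33. The difference between the branches was not tested. HIS3, among the tested histidine genes at 0.21, is also an auxotrophic marker gene, so its reads may not stand for an ordinary pathway gene. In single strains 1 histidine gene passed and 0 lysine genes did. HIS4, which encodes an enzyme of several steps of histidine synthesis, averaged 262 CPM in the GIP4 heterozygote against 54.3 in wild-type (log2 fold change 2.25 ± 0.45, edgeR adjusted p = 0.0284, where 0.28% of tested ORFs passed). That call ended in 7 of 18 fits leaving out 1 library, without wild-type replicate 1, 3, 4, 5 or 6 or GIP4 replicate 1 or 3 (edgeR adjusted p 0.0566 to 0.390), and in the fits of replicates 1 to 3 with and without a replicate block (0.180 and 0.244). In the mean of the strains the HIS4 value was 1.52, with an edgeR adjusted p of 0.136. In wild-type HIS4 had 3 to 7.25 counts, below the filter's minimum count in every sample. HIS4 was thus tested only through the strain libraries, where it had 4 to 40.5 counts. Its call in the GIP4 heterozygote and its positive values are therefore no support for a difference. By strain the median of the 6 tested lysine genes was 0.63 for SEO1, 0.42 for GIP4, 0.29 for FUN26 and 0.47 for FUN14, beside 0.01, 0.03, −0.05 and −0.03 for all tested ORFs. Without the filter it was 0.62, 0.20, 0.28 and 0.55 over the 9 genes, beside −0.04, −0.11, −0.11 and −0.15 for all ORFs in that fit. These medians share the wild-type libraries, so they are not independent results.

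The genes whose log2 CPM was most like the mean standardised profile of the 6 tested lysine genes over the 17 libraries were ARB1 (Pearson r = 0.85), YOR385W (0.79), URA1 (0.75), ILV2 (0.75) and TIF4631 (0.74), with Spearman rho from 0.71 to 0.77. These describe the same 17 libraries, which share depth and the difference between strains and wild-type. ARB1 averaged 178 CPM in the strains and 97.6 in wild-type, and ILV2 364 and 239.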

How the data were processed

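The authors deposited 1 table of estimated counts over the last 200 bases of 6606 ORFs in 18 libraries, per its name and columns. Of its values 93% were whole and 6.98% multiples of 0.5, and none exceeded 201, so a fold change near that ceiling is compressed. Bowtie 0.12.5 is among the tools in the submitters' processing notes. For the build, the annotation, strand and multiply matching reads, the setting is not given in the sources used here. Printed gene coordinates are the table's; sequences and their coordinates are from RefSeq assembly R64, matched by systematic name (5915 ORFs). Of the members only LYS21 has the same coordinates in both, and no other ORF overlapped the last 200 bases of a member.

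Estimated counts were rounded and tested with edgeR 4.0.16 (R 4.3.3): TMM factors, filterByExpr (minimum count 10) and its quasi-likelihood test, with 1 mean for each group and 17 libraries in 1 fit, and Benjamini-Hochberg adjustment over all tested ORFs. Wild-type was subtracted from each strain and from the mean of all 4, and strains were compared with each other by an F test. CPM is per 1e6 of the TMM-scaled total of ORFs passing the filter, and log2 CPM used a prior count of 2. The fit was tested on simulated data. Fold intervals are 95% (normal), and counting intervals are exact and cover counting error only. DESeq2 1.42.0, other scaling, no filter, a correction for the ceiling, wild-type replicates 1 and 2 kept apart, fits per strain, a replicate block and leaving out each library were the alternatives. The members, gene lists and tests were chosen with earlier results of these data known. Genes named beside the members are the listed lysine-linked genes with an unadjusted p under 0.05 in either fit, GCN4 and ARO8, the background markers, HIS2, HIS4 and HIS5 (chosen after their values were seen), and the 5 genes with the highest correlation to the members' profile. The values of 1 listed gene are not reported here.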

Additional observations from a re-analysis of the deposited data

How the results depend on the processing

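Of 1231 alternative values of the members, 1185 kept direction and side of the threshold, 45 reversed and 1 passed the threshold (LYS1 in the FUN14 heterozygote without wild-type replicate 3, log2 fold change 0.96). The log2 fold change of the mean of the strains ran over the alternatives from 0.75 to 0.89 for LYS1 (adjusted p 0.061 to 0.759) and from 0.58 to 0.92 for LYS9 (0.193 to 0.955). LYS12 in that mean (−0.03) became 0.07 with wild-type replicates 1 and 2 apart, 0 under the replicate block, 0.14 with wild-type replicates 4 to 6 alone, and −0.25 to 0.20 leaving out single libraries. LYS20 (0.08) became −0.07 under the block, −0.05 in the same libraries without it, −0.02 with wild-type replicates 1 to 3 alone, and −0.06 to 0.27 leaving out single libraries. Leaving out single libraries, that mean ran from 0.08 to 0.47 for LYS2, 0.17 to 0.66 for LYS21 and 0.23 to 0.87 for LYS5, and under the block it was 0.08 for LYS4 and 0.04 for LYS14. In the GIP4 heterozygote LYS2 became −0.17 with wild-type replicates 4 to 6 alone (−0.89 to 0.55 leaving out single libraries), and LYS21 became −0.08 under the block, −0.07 without it and −0.17 with wild-type replicates 1 to 3 alone (−0.31 to 0.81), while LYS4 ran from −0.39 to 0.80. In the FUN26 heterozygote LYS2 became −0.01 and LYS21 0.21 with wild-type replicates 4 to 6 alone and LYS12 −0.17 with 1 to 3 alone. There, leaving out single libraries gave −0.71 to 0.22 for LYS21, −0.49 to 0.39 for LYS12, −0.04 to 0.52 for LYS14 and −0.22 to 0.51 for LYS4. In the FUN14 heterozygote LYS20 became 0.06 with wild-type replicates 4 to 6 alone (−0.20 to 0.13) and LYS4 ran from −0.59 to 0.18, and in the SEO1 heterozygote LYS12 ran from −0.97 to 0.20, LYS4 from 0.02 to 0.94 and LYS14 from 0.30 to 1.11. Both subsets of wild-type were chosen after seeing the data. Counts of ORFs called moved too. For the mean of the strains the 11 became 22 without the filter, 42 under the replicate block and 30 in the same libraries without it, and 8 to 16 leaving out single libraries. For SEO1 the 4 became 7 with DESeq2, 8 without the filter, 8 with replicates 1 and 2 apart, 11 under the block, 7 without it, 2 in a fit of the pair alone and 2 to 114 leaving out single libraries. For GIP4 the 8 became 14 under the block, 2 and 4 with wild-type replicates 1 to 3 and 4 to 6 alone, and 4 to 11. For FUN26 the 6 became 17 under the block, 14 without it, 2 with wild-type replicates 1 to 3 alone, and 1 to 7. For FUN14 the 9 became 48 with DESeq2, 23 with replicates 1 and 2 apart, 146 under the block, 30 without it, 4 in a fit of the pair alone, 14 with wild-type replicates 4 to 6 alone, and 2 to 175. Among the strains the 0 became 2 with DESeq2, 2 under the block, 1 with wild-type replicates 4 to 6 alone, and 0 to 217. The cause of these moves was not tested. The difference in the LYS2 ratio ran from −0.21 to 0.13. Same-numbered libraries had a median correlation of 0.24 over 30 pairs (−0.51 to 0.58), 20 of them over 0.1, against −0.11 over 60 pairs of different numbers, 15 of them over 0.1, and 8 of 15 libraries matched their own number best. Same-numbered libraries were thus more alike in the median, though not in every pair. Whether the numbers stand for a shared handling of libraries was not tested. The main fit leaves the numbers out, and the fits with a replicate block give the values with them. At 1 to 10 counts per library, counting error limits the precision of LYS2, LYS5 and LYS21.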

Other observations

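Within the 9 genes, 36 pairs were correlated in log2 CPM over the 17 libraries, and no pair passed after Benjamini-Hochberg adjustment. The pair with the smallest p was LYS12 with LYS20, at Pearson r = −0.65 and Spearman rho = −0.67 (permutation p = 0.00453 and 0.00427, adjusted 0.163 and 0.154). Without the 2 libraries farthest from the median of LYS12, r was −0.51, and within groups it was −0.68. LYS1 and LYS9, the 2 genes with the highest fold changes from wild-type, had r = 0.54 and rho = 0.50 over all libraries (permutation p = 0.0255 and 0.0433, adjusted 0.229 and 0.312), r = 0.45 without the 2 farthest libraries, and r = −0.06 within groups.

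ARO8, the transaminase gene, was highest in GIP4 replicate 1 (763 CPM) and SEO1 replicate 1 (581 CPM), the libraries where LYS4 was also highest (364 and 391 CPM), against 156 to 278 CPM in wild-type. GIP4 replicate 1 is also the library with 0 counts of MET17. These values were noticed after the data were seen and were not tested.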
